A study of Mus musculus with 3 samples.

Results

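Cluster 10 was a small group of type 1 conventional dendritic cells (cDC1s) from mouse tumours that the study marks by *Cxcl9*, *Cxcl10*, *Irf1* and *Serpina3g*. It was taken as the cells numbered 10 in the deposited cluster table, 76 of 5806 cDC1s and of 30209 barcodes in the matrices, and was described here against the other 5730 cDC1s over all genes. The cells came from MCA205 LA-OVA tumours, a transplantable fibrosarcoma line that carries the model antigen OVA, grown on both flanks and taken 5 days after injection. There were 3 droplet libraries, each 1 pool of mice: wild-type (WT; 12 females and 25 males), *sGsn-/-*, which lack secreted gelsolin (16 females and 15 males), and *sGsn-/- Clec9a-/-*, which lack the receptor DNGR-1 as well (17 females and 10 males). The mice were between 6 and 20 weeks old, with no age given for a single pool. Sorted pre-cDCs, XCR1+ cDC1s and Sirpa+ cDC2s had been mixed 1:1:2, and the study counted clusters 7, 8, 9 and 10 among the activated cDC1s.

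cDC1s take up material from dead cells and present it on MHC class I to CD8+ T cells. CXCL9 and CXCL10 are secreted ligands of CXCR3, a receptor on activated T cells and NK cells, and are made by many cells that receive interferon-γ. That cytokine signals through the JAK-STAT pathway, which drives transcription of *Irf1*, and IRF1 acts on genes for chemokines, guanylate-binding proteins (GBPs), immunity-related GTPases (IRGs) and antigen presentation.

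Cluster 10 held 21 of 2316 WT cDC1s, 0.907% with an exact Clopper-Pearson 95% interval of 0.562% to 1.38%. It held 27 of 1712 *sGsn-/-* cDC1s, 1.58% (1.04% to 2.29%), and 28 of 1778 *sGsn-/- Clec9a-/-* cDC1s, 1.57% (1.05% to 2.27%). The intervals overlapped among the 3 libraries; here and below they cover counting error only. The summed unique molecular identifiers (UMIs) of cluster 10 were 282206 in the WT, 310344 in the *sGsn-/-* and 298768 in the *sGsn-/- Clec9a-/-* library, against 32393971, 23252703 and 21174782 for the other cDC1s. The median cell of cluster 10 carried 12725, 11167 and 10369 UMIs in these libraries, and the median other cDC1 14099, 14199 and 12267, so cluster 10 was shallower in each. Its median mitochondrial share was 1.82%, 1.49% and 2.09%, against 1.57%, 1.65% and 1.94%, and was the lower one only in the *sGsn-/-* library. None of its barcodes occurred in more than 1 library (0 of 76).

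The cDC1 label was checked on defining genes, with levels in CPM (the counts of each gene set against all UMIs summed over a group in its library). *Xcr1*, the receptor for XCL1, stood at 202, 155 and 181 CPM in cluster 10 of the WT, *sGsn-/-* and *sGsn-/- Clec9a-/-* libraries, an order kept for all values by library below, and at 205, 224 and 233 CPM in the other cDC1s. *Irf8*, the transcription factor that cDC1s depend on, stood at 1006, 1144 and 1165 CPM against 1220, 1180 and 1195 CPM, and its partner *Batf3* at 333, 454 and 365 CPM against 262, 266 and 260 CPM. Cluster 10 therefore carried these genes within 2-fold of the other cDC1s in every library, although over the 20 cDC1 identity genes tested only 2 had a mean ratio above 0, with a median log2 ratio of −0.41 and 1 gene, *Tlr3*, called lower by the rule given further on. *Clec9a* gave 34 and 52 UMIs in the WT and *sGsn-/-* cells of cluster 10 and 0 in the *sGsn-/- Clec9a-/-* cells, where 0 UMIs allow up to 12.3 CPM, as that label requires. *Gsn* stood at 145, 139 and 177 CPM, but counts from the 3′ end do not separate secreted gelsolin from the other transcripts of the gene, so it does not check the *sGsn-/-* label.

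Markers of other cells were summed over whole lists. The 11 NK cell markers together reached 31.9, 80.6 and 26.8 CPM in cluster 10 against 23.9, 74.96 and 34.5 CPM in the other cDC1s, with *Klre1* the most abundant at 13.3 CPM and *Prf1* and *Eomes* at 0 UMIs. The 7 T cell markers gave 3.54, 19.3 and 3.35 CPM against 3.09, 7.14 and 3.21 CPM, with *Trbc2* the most abundant at 4.40 CPM and *Cd3d*, *Cd3g* and *Cd28* at 0 UMIs. None of these 18 genes reached the level needed for a comparison. The 11 macrophage and monocyte markers together reached 1070, 1121 and 1128 CPM in cluster 10 against 793, 888 and 871 CPM in the other cDC1s, of which *Plac8* alone made up 878 CPM in cluster 10. Of the 4 macrophage markers tested, the Fc receptor gene *Fcgr1* was higher in cluster 10 (42.5, 35.4 and 70.3 CPM against 10.4, 11.5 and 11.9 CPM) and the chemokine receptor gene *Ccr2* lower (135, 116 and 107 CPM against 291, 269 and 280 CPM). *Fcgr1* lay under 20 CPM in the other cDC1s, so that only a rise could bring it in. Cluster 7 carried *Fcgr1* too, at 70.2, 52.1 and 67.3 CPM, above cluster 10 in the WT and *sGsn-/-* libraries. Among cells with *Xist* and no Y-linked transcript neither *Fcgr1* nor *Ccr2* met the rule given further on. Their mean log2 ratios moved from 1.98 and −1.23 to 1.62 and −1.02. The 6 cDC2 markers gave 142, 512 and 100 CPM against 57.7, 51.1 and 54.9 CPM, and the surplus lay in *Cd209a*, described further on, while *Sirpa* was seen in 2.63% and *Itgam* in 7.89% of the cells of cluster 10. The 4 plasmacytoid markers gave 3.54, 3.22 and 3.35 CPM against 6.76, 9.29 and 8.83 CPM, with *Ccr9* the most abundant and *Cox6a2* and *Klk1* at 0 UMIs, and the 4 B cell markers 3.54, 0 and 0 CPM against 1.88, 1.63 and 1.18 CPM, with *Cd79b* the only one seen. The 4 neutrophil markers were at 0 UMIs, the 4 fibroblast or tumour markers gave 0, 6.44 and 0 CPM against 1.94, 1.85 and 1.37 CPM with *Col1a2* and *Col3a1* at 0 UMIs, and the 3 endothelial markers 24.8, 22.6 and 10.04 CPM against 6.54, 6.54 and 4.16 CPM with *Pecam1* the most abundant and *Cdh5* at 0 UMIs. The endothelial list was thus higher in cluster 10 in each library, at a low level. The part of such cells in the results was not tested.

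For each gene the log2 ratio of cluster 10 to the other cDC1s was taken within each library, after adding 1 CPM to both. A gene was called higher or lower where the ratio was at least 2-fold in the same direction in all 3 libraries, among 4644 genes that reached a mean of 20 CPM over both groups. By this rule 91 genes were higher (1.96% of those tested) and 48 lower (1.03%) in cluster 10, and without the *sGsn-/- Clec9a-/-* library the higher ones were 141 and the lower ones 90. The lower ones numbered 90 to 92 without any 1 library. The balance depended on the rule, with 157 higher and 545 lower without the filter on low genes and 172 higher and 177 lower with edgeR coefficients. The clusters had been formed on these same counts and 3 libraries allow no exact paired permutation p below 0.25, so the ratios describe cluster 10 and were not tested. The median log2 ratio over the genes tested was −0.00, and TMM scaling moved it to −0.10. Of the 91 genes, 36 belonged to the lists of pathway genes described below, and of the 48 genes 7. The lists were chosen with earlier results of these data known, and the share of all tested genes in them was not taken. These counts therefore say nothing about enrichment.

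*Cxcl9*, the gene of the first CXCR3 ligand, stood at 4745, 4982 and 4770 CPM in cluster 10 and at 89.0, 103 and 91.6 CPM in the other cDC1s. The means were 4832 ± 130 and 94.5 ± 7.36 CPM (SD, n = 3), and the log2 ratios 5.72, 5.58 and 5.69. *Cxcl9* was thus alike in the 3 libraries. *Cxcl10*, the gene of the second ligand, stood at 1513, 1508 and 2450 CPM against 35.9, 39.6 and 50.01 CPM, means of 1824 ± 542 and 41.8 ± 7.33 CPM, with log2 ratios of 5.36, 5.22 and 5.59. Its highest level lay in the *sGsn-/- Clec9a-/-* library in both groups. *Cxcl11*, the remaining ligand, is not in the matrices, and both CXCR3 ligand genes counted were called higher, with a median log2 ratio of 5.53.

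*Irf1*, which encodes an interferon-inducible transcription factor, stood at 751, 606 and 643 CPM in cluster 10 and at 56.7, 56.5 and 49.4 CPM in the other cDC1s (means 667 ± 75.6 and 54.2 ± 4.16 CPM), with log2 ratios of 3.70, 3.40 and 3.67. *Serpina3g*, which encodes an intracellular inhibitor of cysteine proteases, stood at 269, 709 and 395 CPM against 5.46, 10.5 and 7.37 CPM (means 458 ± 226 and 7.77 ± 2.54 CPM), with log2 ratios of 5.39, 5.95 and 5.56. The *sGsn-/-* library was the highest for *Serpina3g* in both groups. The neighbouring *Serpina3f* stood at 28.3, 64.4 and 40.2 CPM against 0.216, 0.516 and 0.378 CPM, but these genes are close copies, and how reads were shared between them is uncertain. Of 13 serpins listed, 12 were in the matrices and 5 were tested, 3 of them at under 20 CPM in the other cDC1s so that only a rise could bring them in; 2 were higher and none lower, with a median log2 ratio of 1.09, and −0.01 over the 12.

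On the GRCm38 assembly (GENCODE M21 annotation), *Cxcl9* lies at chr5:92321347-92328079 and *Cxcl10* at chr5:92346638-92348889, both on the minus strand, and *Cxcl10* overlaps *Art3* there. *Irf1* lies at chr11:53770014-53778374 and *Serpina3g* at chr12:104236245-104241939, both on the plus strand. Among the 12 cDC1 clusters, each of these 4 genes was highest in cluster 10 in 3 of 3 libraries. The next highest means were 542 CPM for *Cxcl9* in cluster 7, 244 CPM for *Cxcl10* in cluster 7, 228 CPM for *Irf1* in cluster 8 and 43.4 CPM for *Serpina3g* in cluster 7.

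**Figure D1:**
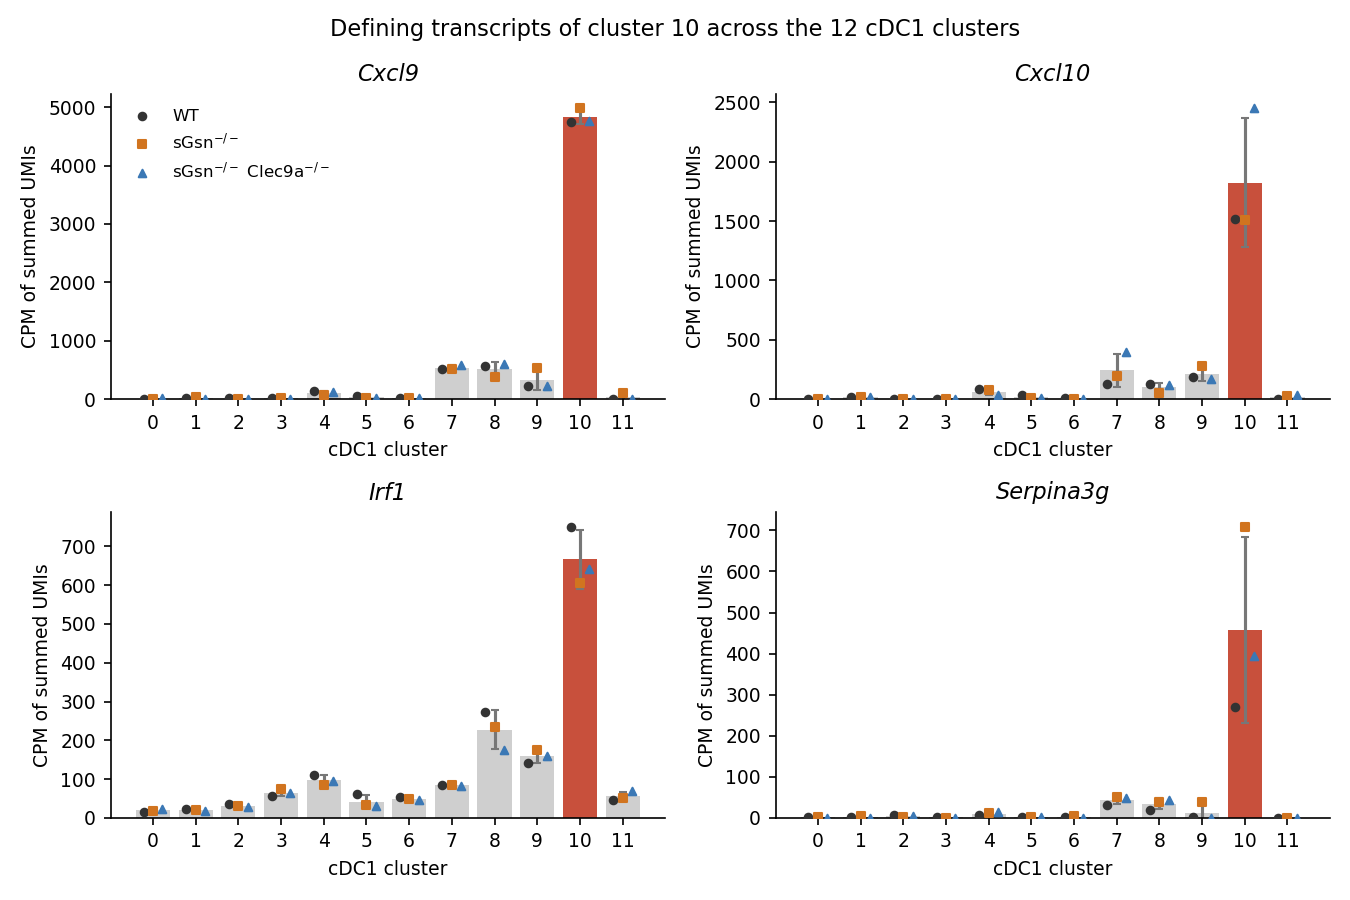
Levels of *Cxcl9*, *Cxcl10*, *Irf1* and *Serpina3g* in CPM in each of the 12 cDC1 clusters, with 1 point per library, bars for the mean and error bars for the SD (n = 3). Cluster 10 is the highest for each gene in all 3 libraries.

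Although cluster 10 was 1.31% of the cDC1s, it held 4310 of the 11526 *Cxcl9* UMIs of all cDC1s, 37.4%, and by library 31.7%, 39.3% and 42.3%. It held 34.1% of their *Cxcl10* UMIs, 41.8% of those of *Serpina3g* and 12.4% of those of *Irf1*. Against all 30209 barcodes, cluster 10 held 19.1% of the *Cxcl9* and 4.15% of the *Cxcl10* UMIs. A small part of the cDC1s therefore held a large part of their *Cxcl9* UMIs in every library. The median cell of cluster 10 carried 33.5 *Cxcl9* UMIs, with quartiles of 17 and 82.25, the highest reached 264, and 6 cells had none. *Cxcl10* was more unevenly spread in cluster 10, with a median of 4 UMIs, a highest value of 192, and 22 cells without any. The 10 cells with the most UMIs held 42.0% of the *Cxcl9* and 58.3% of the *Cxcl10* of the cluster. In a single cell of the *sGsn-/-* library lay 41.0% of the *Cxcl10* UMIs of its cluster 10 cells, against 17.1% for *Cxcl9*. At least 50 *Cxcl9* UMIs were found in 32 cells of cluster 10, 19 of cluster 7, 10 of cluster 8, 4 of cluster 4, 2 each of clusters 1 and 9 and 1 of cluster 5.

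*Cxcl9* was detected in 70 of the 76 cells of cluster 10 (92.1%), in 10.6% of the other cDC1s and in 1.91% of 3039 barcodes with NK cell markers, which served as a measure of free RNA. The median depths were 11132.5, 13524.5 and 9645 UMIs, respectively. The highest NK-marked barcode held 106 *Cxcl9* UMIs, and whether all of their share is free RNA was not tested. After thinning each cell to 3900 UMIs, which left out 6 cells of cluster 10, the shares for *Cxcl9* were 92.9%, 6.88% and 0.779%. *Cxcl9* was thus found in nearly all cells of cluster 10, at either depth far above the other cDC1s and free RNA. *Cxcl10* was detected in 71.1% of the cells of cluster 10 (60% after thinning), 7.63% of the other cDC1s (4.09%) and 18.8% of the NK-marked barcodes (10.5%). *Irf1* was detected in 97.4% of the cells of cluster 10 (80% after thinning) against 32.5% of the other cDC1s (15.3%), and *Serpina3g* in 73.7% (58.6%) against 3.82% (1.60%). The NK-marked barcodes were no background for *Cxcl10*, *Irf1* and *Serpina3g*: for *Cxcl10* their share was above that of the other cDC1s and 1 barcode held 322 UMIs, and *Irf1* and *Serpina3g*, which NK cells express, were detected in 51.3% and 60.3% of them. In cluster 10, *Cxcl9* was detected with *Irf1* in 68 cells, with *Serpina3g* in 55 and with *Cxcl10* in 53.

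The interferon pathway was followed from receptor to feedback inhibitors. *Ifngr1*, the ligand-binding chain of the interferon-γ receptor, stood at 159, 77.3 and 53.6 CPM in cluster 10 and at 291, 251 and 260 CPM in the other cDC1s, with log2 ratios of −0.87, −1.69 and −2.26. Cluster 10 was below the other cDC1s in every library, yet the WT ratio stayed under 2-fold and the gene was not called. *Jak2*, the kinase bound to the second receptor chain, had ratios of 1.14, 0.93 and 0.66, and *Stat2*, which acts in type I interferon signalling, ratios of 1.21, 0.87 and 1.48, so neither was called, while *Ifngr2*, *Jak1* and *Stat3* had mean ratios of 0.33, 0.09 and 0.03. None of these genes met the 2-fold rule in cluster 10, unlike the inhibitors that follow.

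*Socs1*, whose product blocks JAK kinases, stood at 230, 103 and 201 CPM in cluster 10 and at 17.6, 19.2 and 16.1 CPM in the other cDC1s, with log2 ratios of 3.64, 2.36 and 3.56. Its relative *Socs3* stood at 291, 187 and 208 CPM against 68.9, 71.1 and 71.9 CPM, and *Cish*, another member of the family, at 135, 103 and 40.2 CPM against 7.16, 10.7 and 7.56 CPM. These 3 genes were called higher, and in cluster 10 *Cish* was lowest in the *sGsn-/- Clec9a-/-* library. Of 21 interferon receptor and JAK-STAT genes, 19 were tested and 4 called higher, none lower, with a median log2 ratio of 0.21; 3 of the 19 lay under 20 CPM in the other cDC1s. Of the 9 IRF genes 7 were tested and only *Irf1* was called, with a median of 0.02, and −0.03 over the 9.

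The GBPs and IRGs are interferon-inducible GTPases that act on the vacuoles of intracellular microbes. *Gbp5* stood at 184, 119 and 184 CPM in cluster 10 and at 4.5996, 7.53 and 3.92 CPM in the other cDC1s, with log2 ratios of 5.05, 3.82 and 5.23. *Iigp1* stood at 67.3, 135 and 137 CPM against 3.77, 2.41 and 1.79 CPM, and *Igtp* at 131, 96.7 and 117 CPM against 7.56, 10.4 and 9.21 CPM. *Irgm1*, a regulator of the other IRGs, stood at 198, 180 and 248 CPM against 33.4, 35.8 and 31.6 CPM, and *Ifi47* at 198, 216 and 224 CPM against 22.1, 28.6 and 24.9 CPM. All 5 were high in each library of cluster 10, with *Iigp1* lowest in the WT cells. *Gbp2*, *Gbp3*, *Gbp7* and *Tgtp1* were called higher as well, with mean log2 ratios of 3.70, 3.57, 3.33 and 3.78, but GBP genes and the *Tgtp1* and *Tgtp2* pair are close copies and their split is uncertain. Of 23 genes listed, 21 were in the matrices and 9 were tested, 7 of them at under 20 CPM in the other cDC1s; 9 were higher, with a median log2 ratio of 3.57, and over the 21 genes the median was 2.40. *Gbp6* and *Gbp10* were at 0 UMIs in cluster 10.

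**Figure D2:**
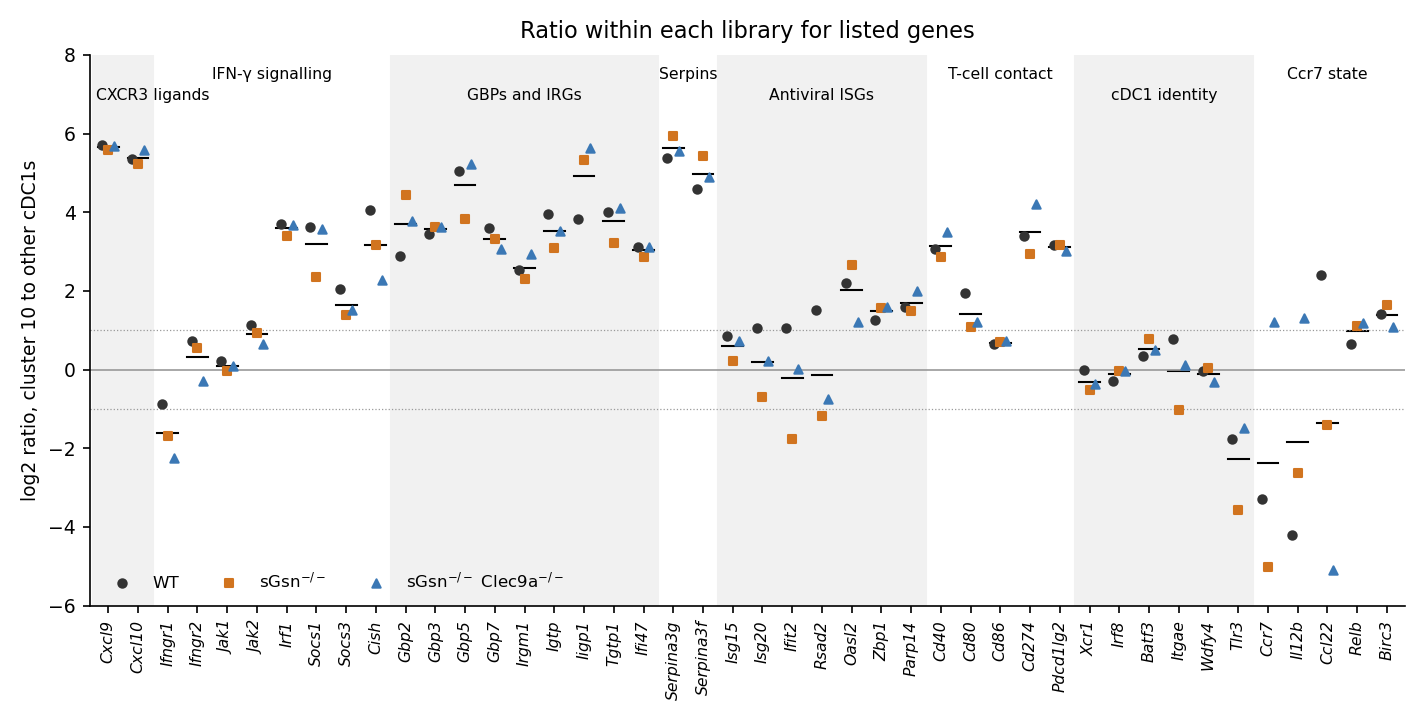
Log2 ratios of cluster 10 to the other cDC1s for listed genes grouped by role, with 1 point per library, a line for the mean and dotted lines at the 2-fold bounds. *Cxcl9*, *Cxcl10*, *Serpina3g* and the GTPase genes lie above the upper bound in all 3 libraries.

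Since these genes moved together, their promoters were read from RefSeq, from 250 bases before to 50 after each start on GRCm38.p6, and searched on both strands for the STAT motif GAS (TTCNNNGAA) and the interferon and IRF motif ISRE (GAAA, any 2 bases, GAAA). These patterns can overlap one another. Over all 32851 promoters, 8.30% held a GAS and 3.44% an ISRE pattern. Of the 91 genes higher in cluster 10, 71 had a promoter in the table, 16 with GAS (22.5%), 14 with ISRE (19.7%) and 26 with either (36.6%), against 7.78%, 4.77% and 11.9% of the 3752 genes tested that had one. Of the 48 lower genes 34 had a promoter, 0 with GAS and 2 with ISRE. Of the GBP and IRG genes 14 had a promoter, 8 with GAS and 12 with ISRE. Of the antiviral interferon-stimulated genes described below 35 had a promoter, 6 with GAS and 20 with ISRE. Only 5 of the 33 tested in that list were called higher.

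The 9 promoters printed are those of the chemokine genes, *Irf1* (its first start), *Serpina3g*, 4 of the 5 GTPase genes described above and the feedback gene *Socs1*, with matches in capitals, and a match describes the letters only. Those of *Irf1*, *Serpina3g* and *Igtp* held 1 GAS each, that of *Gbp5* 2 GAS and 1 ISRE, those of *Cxcl10* and *Igtp* 1 ISRE, and those of *Irgm1* and *Socs1* 2 overlapping ISRE. Those of *Cxcl9* and *Ifi47* held neither pattern in this window, nor did those of *Cd274* and *Pdcd1lg2*, which are not printed. They lie at chr5:92328030-92328329 (*Cxcl9*, minus strand), chr5:92348840-92349139 (*Cxcl10*, minus), chr11:53769764-53770063 (*Irf1*, plus), chr12:104235897-104236196 (*Serpina3g*, plus), chr3:142496684-142496983 (*Gbp5*, plus), chr11:58199306-58199605 (*Igtp*, plus), chr11:48871371-48871670 (*Irgm1*, minus), chr11:49076337-49076636 (*Ifi47*, plus) and chr16:10785487-10785786 (*Socs1*, minus). The table held no entry for *Iigp1*, *Cd40* or *Zbp1*.
*Cxcl9*: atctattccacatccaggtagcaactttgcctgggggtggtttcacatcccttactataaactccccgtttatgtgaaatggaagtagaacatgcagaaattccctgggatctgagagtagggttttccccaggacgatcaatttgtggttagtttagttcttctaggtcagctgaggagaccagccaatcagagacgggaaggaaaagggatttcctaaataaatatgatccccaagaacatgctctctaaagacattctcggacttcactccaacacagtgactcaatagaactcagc
*Cxcl10*: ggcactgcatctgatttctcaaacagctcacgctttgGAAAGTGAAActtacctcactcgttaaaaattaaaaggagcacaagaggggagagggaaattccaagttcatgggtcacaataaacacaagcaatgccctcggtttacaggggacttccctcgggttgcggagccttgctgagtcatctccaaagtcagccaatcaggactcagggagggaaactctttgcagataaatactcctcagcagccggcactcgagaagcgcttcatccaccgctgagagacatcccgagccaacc
*Irf1*: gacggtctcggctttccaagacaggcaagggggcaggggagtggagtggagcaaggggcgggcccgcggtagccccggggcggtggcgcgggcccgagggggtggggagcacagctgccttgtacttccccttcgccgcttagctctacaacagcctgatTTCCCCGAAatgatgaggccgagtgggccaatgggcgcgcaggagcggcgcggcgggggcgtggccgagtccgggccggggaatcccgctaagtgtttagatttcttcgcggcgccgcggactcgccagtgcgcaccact
*Serpina3g*: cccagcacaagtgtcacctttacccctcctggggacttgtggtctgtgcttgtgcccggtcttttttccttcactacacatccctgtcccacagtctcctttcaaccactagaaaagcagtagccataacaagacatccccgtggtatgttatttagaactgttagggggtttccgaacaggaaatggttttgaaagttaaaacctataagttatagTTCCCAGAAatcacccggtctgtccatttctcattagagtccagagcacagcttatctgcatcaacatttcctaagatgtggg
*Gbp5*: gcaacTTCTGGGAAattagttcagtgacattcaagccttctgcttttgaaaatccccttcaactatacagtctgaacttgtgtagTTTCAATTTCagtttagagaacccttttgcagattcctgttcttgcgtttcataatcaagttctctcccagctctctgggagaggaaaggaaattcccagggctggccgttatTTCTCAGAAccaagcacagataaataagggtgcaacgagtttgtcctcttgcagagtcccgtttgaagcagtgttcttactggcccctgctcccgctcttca
*Igtp*: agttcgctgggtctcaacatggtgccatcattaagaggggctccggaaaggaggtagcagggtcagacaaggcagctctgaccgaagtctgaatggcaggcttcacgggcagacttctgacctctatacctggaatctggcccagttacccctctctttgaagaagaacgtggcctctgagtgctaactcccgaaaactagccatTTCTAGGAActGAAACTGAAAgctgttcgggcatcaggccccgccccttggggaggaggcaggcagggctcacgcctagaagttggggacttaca
*Irgm1*: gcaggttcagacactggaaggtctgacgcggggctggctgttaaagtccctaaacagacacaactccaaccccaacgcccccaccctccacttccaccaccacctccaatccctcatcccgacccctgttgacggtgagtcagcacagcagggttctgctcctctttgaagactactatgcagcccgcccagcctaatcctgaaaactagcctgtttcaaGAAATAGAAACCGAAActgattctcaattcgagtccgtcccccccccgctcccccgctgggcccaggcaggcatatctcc
*Ifi47*: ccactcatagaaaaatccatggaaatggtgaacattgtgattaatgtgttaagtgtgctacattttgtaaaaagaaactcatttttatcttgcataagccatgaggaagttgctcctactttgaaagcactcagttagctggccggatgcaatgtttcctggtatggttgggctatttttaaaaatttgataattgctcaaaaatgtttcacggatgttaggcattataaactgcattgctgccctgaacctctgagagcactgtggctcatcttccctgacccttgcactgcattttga
*Socs1*: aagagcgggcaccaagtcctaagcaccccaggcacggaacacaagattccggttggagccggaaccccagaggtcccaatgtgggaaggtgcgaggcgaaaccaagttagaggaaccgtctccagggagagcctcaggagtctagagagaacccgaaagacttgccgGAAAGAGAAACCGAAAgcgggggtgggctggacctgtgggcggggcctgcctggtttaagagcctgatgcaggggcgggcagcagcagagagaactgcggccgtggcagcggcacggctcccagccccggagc

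The antiviral interferon-stimulated genes were looked at next. Of 47 listed, 44 were in the matrices and 33 were tested, 3 of them at under 20 CPM in the other cDC1s, and 5 were higher and none lower in cluster 10, with a median log2 ratio of 0.56, and 0.41 over the 44. *Zbp1*, a sensor of Z-form nucleic acids, stood at 230, 329 and 321 CPM in cluster 10 against 95.3, 109 and 106 CPM, and the poly-ADP-ribose polymerase gene *Parp14* at 142, 135 and 181 CPM against 45.9, 47.8 and 44.3 CPM. *Oasl2*, *Ifi204* and *Slfn8* were called too, with mean log2 ratios of 2.03, 1.58 and 1.39, but *Ifi204* and *Slfn8* were no longer called under TMM scaling, where their means were 1.48 and 1.29. *Parp14* lost its call after thinning, with its mean ratio moving from 1.70 to 1.40, and *Oasl2* with a pseudocount of 5 CPM (1.75), with the 11 other clusters weighted equally (1.70) and under the filter at 50 CPM. *Isg15*, a ubiquitin-like modifier, stood at 354, 309 and 325 CPM against 194, 264 and 197 CPM, under 2-fold in each library. The other cDC1s include clusters 7 and 8, where the mean *Isg15* levels were 1394 and 606 CPM. Cluster 10 ranked 3 among the clusters, at a mean of 329 CPM. The remaining clusters had means from 31.8 CPM (cluster 11) to 154 CPM (cluster 4).

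The comparison with cluster 7, the interferon-stimulated-gene-rich cluster, came next. It tested 4536 genes, of which 76 (1.68%) were higher and 71 (1.57%) lower in cluster 10, so that 51.7% of the calls were higher, or 37.3% under TMM scaling. Without the *sGsn-/- Clec9a-/-* library the counts were 140 and 131. *Isg15* stood at 1341, 1542 and 1299 CPM in cluster 7, so cluster 10 lay lower by log2 ratios of −1.92, −2.31 and −2.00. The tetratricopeptide genes *Ifit2* and *Ifit3* and the viperin gene *Rsad2* had mean ratios of −3.29, −4.95 and −3.02, and *Ifit3* fell to 28.3, 3.22 and 0 CPM in cluster 10 from 133, 166 and 164 CPM in cluster 7. *Ifi213*, *Tlr3* and *Ccl2* completed the largest decreases, with mean ratios of −2.87, −2.59 and −3.59. Of the 37 antiviral genes tested, 16 were lower in cluster 10 and none higher, with a median of −1.24 against 0.04 over all genes tested.

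In the same comparison *Cxcl9* stood at 519, 517 and 588 CPM in cluster 7, and cluster 10 was higher by log2 ratios of 3.19, 3.27 and 3.02. *Cxcl10*, at 132, 199 and 401 CPM in cluster 7, and *Irf1*, at 85.5, 85.7 and 82.1 CPM, were higher in cluster 10 by mean ratios of 3.01 and 2.96. The largest increases of cluster 10 over cluster 7 were in *AA467197*, the mouse counterpart of *C15orf48* (4.16), the A20-binding gene *Tnip3* (3.30), *Serpina3g* (3.28), *Cd274* (3.20), *Cxcl9* and *Cd209a* (both 3.16). Of the 10 GBP and IRG genes tested, 4 of them at under 20 CPM in cluster 7, 5 were higher in cluster 10, with a median ratio of 1.66, and 0.53 over the 21 genes in the matrices. *Irgm1* stood at 153, 161 and 127 CPM in cluster 7 and *Ifi47* at 179, 192 and 172 CPM. Both lay less than 2-fold below cluster 10 in each library.

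No listed antigen presentation gene was called against the other cDC1s. Of 25 MHC class I genes 23 were tested and none was called, with a median log2 ratio of 0.22, and their summed level was 11404.5 CPM in cluster 10 and 9939.6 CPM in the other cDC1s. *Tap1*, a subunit of the peptide transporter, stood at 400, 390 and 351 CPM in cluster 10 against 221, 234 and 218 CPM, above them in each library by less than 2-fold. Of 13 MHC class II genes 12 were tested and none was called (median −0.13). A mean ratio above 0 was seen in 20 of the 23 class I genes tested and in 3 of the 12 class II genes.

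Costimulatory and inhibitory ligands were higher in part. *Cd40*, the receptor for CD40 ligand on helper T cells, stood at 209, 219 and 238 CPM in cluster 10 and at 24.02, 29.5 and 20.1 CPM in the other cDC1s, with log2 ratios of 3.07, 2.85 and 3.50. *Cd274*, which encodes PD-L1, stood at 234, 245 and 308 CPM against 21.3, 31.3 and 15.8 CPM, with ratios of 3.40, 2.93 and 4.20, and *Pdcd1lg2*, which encodes PD-L2, at 60.2, 90.2 and 30.1 CPM against 5.83, 9.20 and 2.88 CPM. All 3 were far apart between the groups in each library. *Cd80*, a ligand of CD28, was called by a smaller margin (85.0, 58.0 and 43.5 CPM against 21.4, 26.8 and 18.3 CPM), with a mean log2 ratio that dropped from 1.41 to 0.62 when the 11 other clusters were weighted equally, and its fellow ligand *Cd86* was not (287, 306 and 285 CPM against 183, 188 and 172 CPM). Of 19 genes listed 14 were tested, 1 of them at under 20 CPM in the other cDC1s, and 4 were higher, with a median ratio of 0.37, and −0.08 over all 19. *Cd40* was detected in 76.3% of the cells of cluster 10 (47.1% after thinning), 14.6% of the other cDC1s (6.86%) and 4.74% of NK-marked barcodes (1.08%), and 49 cells of cluster 10 carried both *Cd40* and *Cd274*.

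Among the other chemokines, *Ccl5*, which attracts T cells, stood at 7.09, 35.4 and 20.1 CPM in cluster 10 and at 100, 205 and 61.6 CPM in the other cDC1s. The monocyte-attracting chemokine gene *Ccl2* stood at 10.6, 6.44 and 20.1 CPM against 173, 134 and 149 CPM, and *Ccl7* at 0, 0 and 16.7 CPM against 93.5, 69.3 and 84.0 CPM. These 3 genes were called lower, the only ones called among 10 tested of 15 listed, with a median log2 ratio of −0.78 and of −0.28 over all 15. For *Ccl5* this call came from cluster 8, which held 89.1% of the *Ccl5* UMIs of the other cDC1s: without cluster 8, in a comparison added after the data had been seen, they stood at 6.31, 21.8 and 16.6 CPM, slightly below cluster 10 in each library, and the gene was not called. *Ccl2* and *Ccl7* stayed lower in cluster 10 without cluster 8, but of the 11868 *Ccl2* and 6419 *Ccl7* UMIs of the other cDC1s cluster 2 held 6360 and 4391, and for *Ccl7* clusters 1 and 11 lay near cluster 10, at means of 8.50 and 7.67 against 5.58 CPM. *Ccl4* stood at 1743, 1147 and 1794 CPM against 1037, 986 and 970 CPM and was not called. Of 18 cytokine genes 4 were tested and none was called (median −0.39); *Il12a*, *Il10* and *Ifnb1* were at 0 UMIs in cluster 10, and *Il1b* stood at 3558, 3561 and 1610 CPM against 2262, 2147 and 1737 CPM, higher in the first 2 libraries only.

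The study proposes clusters 10 and 8 as possible endpoints of activation, and these were compared next. It tested 4626 genes, of which 240 (5.19%) were higher and 302 (6.53%) lower in cluster 10. Of all calls 44.3% were higher, 22.9% under TMM scaling and 29.6% with DESeq2 size factors, and without the *sGsn-/- Clec9a-/-* library 437 genes were higher. *Ccr7*, the receptor that guides migration to lymph nodes, stood at 7.09, 3.22 and 70.3 CPM in cluster 10 and at 2412, 2424 and 1166 CPM in cluster 8. *Il12b*, the gene of the p40 subunit of IL-12, stood at 3.54, 19.3 and 87.0 CPM against 2434, 2087 and 1048 CPM. For both, cluster 10 was highest and cluster 8 lowest in the *sGsn-/- Clec9a-/-* library, and the groups stayed far apart. *Fscn1*, which encodes an actin-bundling protein, had 0 UMIs in cluster 10 in each library and 1078, 874 and 470 CPM in cluster 8. With the UMIs of the 3 libraries pooled, and 3 UMIs set in place of 0, this was at least 260-fold more in cluster 8. The calcium channel subunit gene *Cacnb3* and the actin-severing gene *Scin* were at 0 UMIs in cluster 10 too, pooled likewise at least 108-fold and 44.2-fold below cluster 8, and the tetraspanin gene *Cd63* gave 1, 1 and 0 UMIs there against 637, 727 and 404 CPM in cluster 8. *Ccl5* stood at 2960, 3383 and 1867 CPM in cluster 8. Of the 18 genes of the *Ccr7* state tested, 16 were lower in cluster 10 than in cluster 8 and none higher; against the other cDC1s, which include cluster 8, 12 of 19 were tested and 1 was higher, with a median of −0.46, and −0.95 over all 19.

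*Cxcl9* stood at 562, 376 and 611 CPM in cluster 8, and cluster 10 was higher by log2 ratios of 3.08, 3.72 and 2.96. *Cxcl10*, at 127, 55.1 and 120 CPM in cluster 8, was higher in cluster 10 by a mean ratio of 4.22 and *Irf1*, at 274, 234 and 175 CPM, by 1.56. *Iigp1* (5.48), the orphan receptor gene *Gpr141* (4.86), *Cd209a* (4.27) and *Ms4a6d* (4.10) were also among the largest increases, and of 9 GBP and IRG genes tested of 21, 5 of them at under 20 CPM in cluster 8, 8 were higher in cluster 10, with a median ratio of 2.63, and 1.89 over the 21 genes. In contrast, *Cd40* (329, 195 and 206 CPM in cluster 8) and *Cd274* (327, 372 and 223 CPM) overlapped between clusters 10 and 8. *Cd80* was lower in cluster 10, by log2 ratios of −1.19, −1.88 and −2.26. Of the costimulation genes 17 were tested here, 5 lower in cluster 10 and none higher. The MHC class II transactivator gene *Ciita* was higher in cluster 10 than in cluster 8, at 276, 209 and 177 CPM against 52.3, 47.2 and 71.8 CPM, and 5 of 13 MHC class II genes were higher and 1 lower. Of 24 MHC class I genes tested 5 were lower in cluster 10 and none higher.

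In single cells, *Ccr7* was detected in 5 of 76 cells of cluster 10 (6.58%, or 2.86% after thinning), against 5.04% of the other cDC1s and 3.55% of NK-marked barcodes (1.71% after thinning), so its share in cluster 10 lay near that of free RNA. The UMIs were uneven, with 1 in each of 3 cells and 11 and 10 in the remaining ones, both from the *sGsn-/- Clec9a-/-* library. *Il12b* was detected in 7.89% of the cells of cluster 10 (7.14% after thinning), 6.42% of the other cDC1s and 1.02% of NK-marked barcodes (0.371%). *Fscn1* was detected in 0 of 76 cells, which at this depth allows up to 4.74% of cells with a UMI and sets no limit on cells that express the gene, and in 0.625% of NK-marked barcodes. All 5 cells of cluster 10 with *Ccr7* and all 6 with *Il12b* also carried *Cxcl9*. In cluster 8 *Cxcl9* was detected in 77 of 255 cells, 66 of which carried *Ccr7*.

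**Figure D3:**
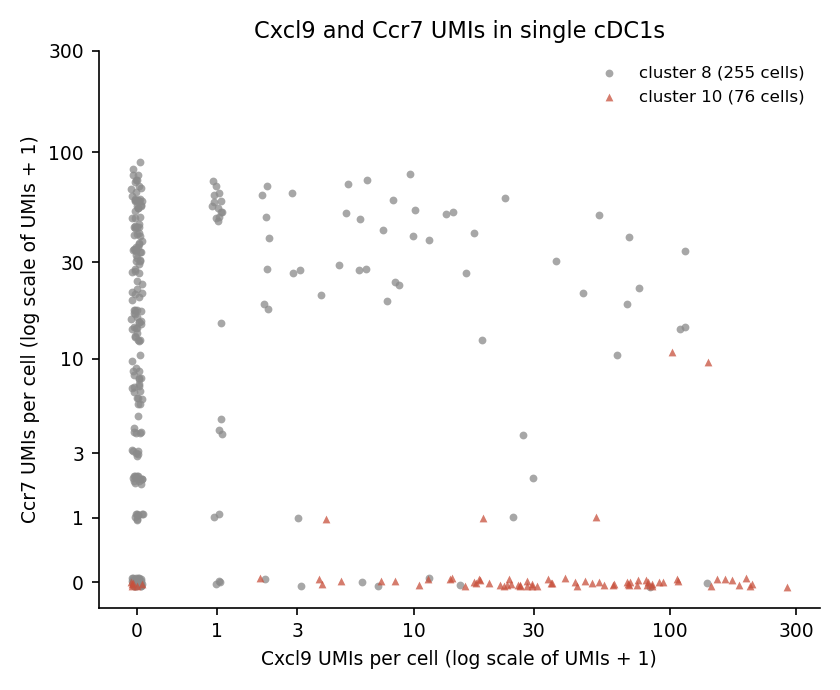
UMIs of *Cxcl9* (horizontal) and of *Ccr7* (vertical) in each of the 76 cells of cluster 10 and 255 of cluster 8, with 1 added, both axes on a log scale and points shifted slightly at random. Cells of cluster 10 lie along the *Cxcl9* axis, and 5 of 76 carry *Ccr7*.

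Against cluster 9, which the study marks by *Nfkbiz*, *Dusp2* and *Tnfaip3*, 4650 genes were tested, of which 127 (2.73%) were higher and 128 (2.75%) lower in cluster 10, or 211 higher without the *sGsn-/- Clec9a-/-* library and 208 lower without the WT library. *Nfkbiz*, the gene of an atypical inhibitor of NF-κB, stood at 53.2, 67.7 and 60.2 CPM in cluster 10 and at 376, 494 and 437 CPM in cluster 9, and *Tnfaip3*, which encodes the ubiquitin editor A20, at 70.9, 129 and 63.6 CPM against 348, 420 and 443 CPM. The largest decreases were in *Phlda1*, which responds to growth signals (−5.40), the receptor gene *Fgfr1* (−3.75), the immediate-early gene *Egr1* (−3.49), the phosphatase gene *Dusp2* (−3.19), the cytokine gene *Tnf* (−3.14) and the actin-binding gene *Lima1* (−3.13). Cluster 10 was thus below cluster 9 in its marker genes, though among the 12 clusters it ranked 3 for *Tnfaip3*, 4 for *Nfkbiz* and 5 for *Dusp2*.

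In the other direction *Cxcl9* stood at 227, 539 and 231 CPM in cluster 9, and cluster 10 was higher by log2 ratios of 4.38, 3.21 and 4.36. *Irf1*, at 142, 175 and 160 CPM in cluster 9, was higher in cluster 10 by a mean ratio of 2.06. *Serpina3g* led the increases over cluster 9, where it stood at 0.960, 37.9 and 0 CPM, followed by *Gbp5* and *Iigp1*, which had 1, 0 and 1 UMIs and 1, 0 and 0 UMIs there. *Plet1* and *AA467197* were also among the largest, with mean ratios of 5.23 and 4.43. The 9 GBP and IRG genes tested of 21 were higher in cluster 10, but 8 of them lay under 20 CPM in cluster 9, so that only a rise could bring them in. Their median log2 ratio was 4.54, and 2.61 over the 21 genes. Of the 91 genes higher than in the other cDC1s, 50, 49 and 71 were also higher than in clusters 7, 8 and 9, and 26 in each of these comparisons, which share the cells of cluster 10. Among the 26 were *Cxcl9*, *Cxcl10*, *Irf1*, *Serpina3g*, *Gbp5*, *Igtp* and *Socs1*.

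Further genes came from a rule that ranked the 20 largest and 12 smallest mean ratios among genes with at least 100 CPM in the higher group. *Ccnd2*, the gene of cyclin D2, stood at 631, 477 and 365 CPM in cluster 10 and at 65.0, 83.9 and 55.3 CPM in the other cDC1s. *AA467197* stood at 337, 377 and 211 CPM against 25.7, 41.8 and 27.6 CPM, and *Ms4a6d*, a membrane protein gene with close copies that leave its split uncertain, at 152, 235 and 131 CPM against 14.1, 19.3 and 13.4 CPM. These were high in every library of cluster 10, and so were *Gpr141* (177, 110 and 141 CPM against 24.4, 25.7 and 21.1 CPM) and *Ly6a*, which encodes Sca-1 (159, 296 and 177 CPM against 31.3, 34.1 and 41.2 CPM). *Cd209a*, a C-type lectin gene, stood at 110, 448 and 73.6 CPM against 24.7, 20.6 and 22.1 CPM and was carried mainly by the *sGsn-/-* library. Cluster 4 carried *Cd209a* too, at 210, 162 and 177 CPM, above cluster 10 in all but that library. *Plet1*, a surface protein gene, stood at 687, 213 and 415 CPM against 59.5, 99.7 and 58.9 CPM and was lowest in that library. Neither *Cd209a* nor *Plet1* kept its call with the 11 other clusters weighted equally, at mean log2 ratios of 2.23 for both.

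Lower genes of cluster 10 came from several classes. *Tlr3*, the sensor of double-stranded RNA, stood at 49.6, 12.9 and 63.6 CPM in cluster 10 and at 170, 163 and 181 CPM in the other cDC1s. *Egr1* stood at 191, 287 and 177 CPM against 715, 648 and 740 CPM, and the lysozyme gene *Lyz2* at 174, 313 and 308 CPM against 838, 720 and 822 CPM. *Zfp36l2*, whose product promotes mRNA decay, stood at 159, 206 and 151 CPM against 571, 547 and 542 CPM. Cluster 10 lay below the other cDC1s in every library for each of them. The ganglioside synthase gene *St3gal5*, the tubulin gene *Tubb2a*, the immunoglobulin gene *Ighm*, the trafficking gene *Unc119*, the G-protein regulator gene *Rgs2* and the receptor gene *Cd300c2* had mean log2 ratios of −1.91, −1.82, −1.75, −1.60, −1.45 and −1.42. After thinning *Egr1*, *St3gal5* and *Ighm* lost their calls, at mean ratios of −1.62, −2.22 and −1.67. With the 11 other clusters weighted equally *Ighm* and *Cd300c2* lost theirs (−1.62 and −1.18). So they did with a pseudocount of 5 CPM (−1.62 and −1.34). Among cells with *Xist* and no Y-linked transcript *Rgs2* lost its call (−1.54).

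The remaining lists moved by different amounts and in both directions. Of the 16 NF-κB genes tested, 2 were higher in cluster 10, *Bcl3* and *Birc3*, with a median log2 ratio of 0.93, and 15 of the 16 had a mean ratio above 0, as had 11 of the 12 early genes tested, 2 of the 20 cDC1 identity genes and 2 of the 14 resting genes. *Birc3*, an inhibitor of apoptosis, fell to a mean ratio of 0.81 and *Bcl2a1b* to 0.998 with the 11 other clusters weighted equally. Of 22 cDC1 identity genes 20 were tested, none higher and only *Tlr3* lower, with a median of −0.41. Among 14 cell death genes tested of 20, *Casp4*, the gene of an inflammatory caspase, *Zbp1* and *Bcl2a1b*, one of several near-identical survival genes, were higher (median 0.64), and *Casp4* stood at 63.8, 126 and 127 CPM against 21.6, 19.1 and 17.1 CPM. Of the metabolic genes 6 of 14 were tested, 3 of them, *Kynu* included, at under 20 CPM in the other cDC1s, and *Kynu*, which encodes the tryptophan-degrading enzyme kynureninase, was higher (74.4, 67.7 and 43.5 CPM against 4.32, 6.28 and 4.20 CPM; list median 0.52, and 0.20 over the 14). Of the early cDC1 genes 12 of 14 were tested and 2 were higher, *S100a6* among them (median 0.60), and of the 14 resting cDC1 genes *Egr1* and *Lyz2* were lower (median −0.67). Of the nucleic acid sensing genes 9 of 14 were tested, *Zbp1* higher and *Tlr3* lower (median 0.34, and −0.10 over the 13 in the matrices). None of 11 unfolded protein response genes tested and none of 5 cell cycle genes tested was called, with medians of −0.02 and −0.07.

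Between genotypes, 1 library stood on each side and no difference was tested. A gene was counted where the exact Poisson 95% intervals of its CPM in cluster 10 did not overlap. For *sGsn-/-* against WT this held for 123 of 779 genes (15.8%), 72 up and 51 down, and for *sGsn-/- Clec9a-/-* against *sGsn-/-* for 121 of 748 (16.2%), 53 up and 68 down, with 19 genes in each comparison also past 2-fold. *Cxcl9* had intervals of 4494 to 5006, 4736 to 5236 and 4525 to 5024 CPM, which overlapped. *Cxcl10* was higher in cluster 10 of the *sGsn-/- Clec9a-/-* library (2276 to 2634 CPM) than of the *sGsn-/-* library (1374 to 1651 CPM), a log2 ratio of 0.70 against 0.33 in the other cDC1s. *Serpina3g* was higher in cluster 10 of the *sGsn-/-* library (618 to 809 CPM) than of the WT library (212 to 337 CPM), a log2 ratio of 1.39 against 0.83 in the other cDC1s. Genotype, pool and library cannot be told apart.

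The largest increases from WT to *sGsn-/-* in cluster 10 were in *Cd209a*, the phosphatase gene *Dusp1*, *Serpina3g*, the inhibitory receptor gene *Cd300a* and *Rgs2*, with log2 ratios of 2.02, 1.72, 1.39, 1.23 and 1.20. The largest decreases were in *Ccl22*, a CCR4 ligand gene, *Filip1l*, the sterol synthesis gene *Cyp51*, *Plet1* and the CD103 gene *Itgae*, with log2 ratios of −3.89, −2.42, −1.81, −1.69 and −1.55, and of the 112 WT UMIs of *Ccl22* 67 lay in 1 cell. In the other cDC1s the same log2 ratios were −0.25, −0.42, 0.83, 0.02 and 0.17 for the increases and −0.09, −0.06, 0.22, 0.74 and 0.25 for the decreases, so that *Cd209a*, *Dusp1*, *Cyp51*, *Plet1* and *Itgae* went the other way there. From *sGsn-/-* to *sGsn-/- Clec9a-/-* the heat shock gene *Hspa1a*, the long non-coding RNA *Neat1*, the transcript *AY036118* and the transcription factor genes *Klf2* and *Jun* rose. Their log2 ratios were 2.57, 1.53, 1.46, 1.08 and 1.03, against −0.38, 0.63, 0.66, 0.15 and −0.08 in the other cDC1s. *Ccl17*, another CCR4 ligand gene, *Cd209a*, *Cd300a* and the kinase gene *Rock1* were among the genes that fell most, with log2 ratios of −5.48, −2.59, −1.57 and −1.30, against −0.93, 0.10, −0.30 and −0.02 in the other cDC1s. *Ccl17* gave 153 UMIs in the *sGsn-/-* library, 71.2% of them in 1 cell, and 3 in the other. Single cells of cluster 10 thus carried some of the largest differences between the libraries.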

How the data were processed

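The authors deposited matrices of unnormalised UMI counts for the 3 libraries, made with Cell Ranger 6.0.1 (matrix header) on mm10 (GRCm38), and a table with the library, the cluster and the counts of UMIs and genes of each cDC1. The authors had integrated the libraries with Seurat (the methods and the labels differ on its version), removed dying cells and cells rich in mitochondrial transcripts, and clustered what remained. Only the matrices, not integrated values, entered the sums. In 65 of the 76 cells of cluster 10 the table and the matrix gave the same number of UMIs.

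Raw counts of cluster 10 and of each group compared were summed per library and scaled to CPM, with Python 3.11.15, numpy 2.4.6, pandas 2.3.3 and scipy 1.17.1. Figures were drawn with matplotlib 3.10.9. Log2 ratios took a pseudocount of 1 CPM, and genes with a mean of 20 CPM over the 2 groups were tested against the 2-fold rule in all 3 libraries, with no p-values. Intervals are exact Clopper-Pearson and Poisson 95% intervals. A fold against a group at 0 takes a floor of 3 counts over the group. An upper limit on a share of 0 is the Clopper-Pearson bound.

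Genes were named by rank: the 20 largest and 12 smallest mean ratios against the other cDC1s and the 6 largest and 6 smallest against each of clusters 7, 8 and 9, at 100 CPM or more, and the 5 largest and 5 smallest between genotypes at 200 CPM or more. Genes of the lists could be named with their values. Results for some genes are left out. The lists were the CXCR3 ligands, GBPs and IRGs, antiviral genes, JAK-STAT genes, IRFs, serpins, MHC class I and II, costimulation, NF-κB, cDC1 identity, other chemokines, cytokines, metabolic enzymes, *Ccr7* state, early and resting genes, unfolded protein response, cell death, nucleic acid sensing and cell cycle, and markers of other cells. Members and lists were chosen with earlier results of these data known.

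The alternatives tried were TMM factors and model coefficients from edgeR 4.0.16, with and without the library as replicate block, size factors from DESeq2 1.42.0 (both in R 4.3.3), other filters and pseudocounts, each library left out, cells thinned to 3900 UMIs (seed 11), the 6% of barcodes with the highest Scrublet scores left out (scanpy 1.11.5), and other cells to compare with. Only cells with *Xist* and no Y-linked transcript, and other cDC1s without cluster 8, were used in alternatives added after the data had been seen.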

Additional observations from a re-analysis of the deposited data

Results flagged for a closer look

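In barcodes outside the cDC1 table lay 11058 *Cxcl9* UMIs, in 923 of 24403 barcodes, 203 of them with at least 10 UMIs. They were flagged as a signal in cells that the cluster table does not cover, and which cells carried them was not tested.

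The sexes were mixed in each pool. Cells with Y-linked transcripts or *Xist*, but not both, were counted. Among them, the share with Y-linked transcripts in cluster 10 differed from that in the other cDC1s by −13.8 percentage points in the WT library (1 of 18 cells, 5.56%, 95% interval 0.141% to 27.3%, against 19.4%), −33.2 in the *sGsn-/-* library (1 of 27 cells, 3.70%, 0.0937% to 19.0%, against 36.9%) and 17.6 in the *sGsn-/- Clec9a-/-* library (9 of 22 cells, 40.9%, 20.7% to 63.6%, against 23.3%). The difference between the groups flagged it and was not tested.

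For 5 genes the log2 ratio of cluster 10 to the other cDC1s, with 1 CPM added to both, changed direction between libraries by a wide margin. In the WT, *sGsn-/-* and *sGsn-/- Clec9a-/-* libraries, in this order, the ratio was 2.41, −1.40 and −5.10 for *Ccl22*, 5.66, 3.25 and −1.30 for *Ccl17*, −4.21, −2.64 and 1.32 for *Il12b*, 3.08, −2.40 and −3.55 for *Il4i1* and −3.29, −5.01 and 1.22 for *Ccr7*. The counts lay in few cells: *Ccl17* in 7, 9 and 2 cells of cluster 10, with 38.3% and 71.2% of the UMIs of the first 2 libraries in 1 cell each, and *Ccr7* in 2, 1 and 2 cells, with 2, 1 and 21 UMIs. Cluster 8 held 92.4%, 64.4%, 89.9%, 91.9% and 98.0% of the UMIs of *Ccl22*, *Ccl17*, *Il12b*, *Il4i1* and *Ccr7* in the other cDC1s, so the ratios were set mainly against it. Without cluster 8 the ratios of *Ccr7* were 1.87, 0.13 and 4.95, those of *Il12b* −0.62, 0.61 and 3.16, those of *Ccl22* 5.93, 2.03 and −2.00, those of *Ccl17* 7.23, 4.65 and −0.24 and those of *Il4i1* 5.49, 1.11 and −1.18. The differences between libraries were not tested, and genotype, pool and library cannot be told apart.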

How the results depend on the processing

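The counts of called genes, the shares and the averages per cell were taken again under the alternatives planned for each. The counts against the other cDC1s were also taken under the alternatives added after the data had been seen. Counts for gene lists and between genotypes were not. Of 115 such values from the alternatives, 88 were labelled alike and 27 moved, by limits that differed between counts and shares. Alike does not mean equal. For the genes higher than in the other cDC1s, 130 against 91 was still alike and 141 moved. In detection, 60% against 71.1% for *Cxcl10* was alike and 100% against 97.4% for *Irf1* moved. The balance of calls against the other cDC1s depended on the rule, with more higher than lower genes in the report and more lower than higher ones without a filter or with edgeR coefficients.

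Against the other cDC1s the genes higher in cluster 10, 91 in the report, numbered 157 without a filter on low genes, 172 with edgeR coefficients and 111 to 141 with 1 library left out. The lower genes, 48, numbered 545 without a filter, 18 at a mean of at least 50 CPM, 73 after thinning to 3900 UMIs, 177 with edgeR coefficients and 90 to 92 with 1 library left out. With the library as replicate block the edgeR coefficients gave 170 higher and 179 lower. An edgeR coefficient has to pass 2-fold once, while the rule of the report has to be met in each library, and with 1 library left out it has to be met in fewer.

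Against cluster 7 the higher genes, 76, ranged from 102 to 140 and the lower ones, 71, from 104 to 131 with 1 library left out. Against cluster 8 the higher genes, 240, numbered 127 with TMM factors, which moved the median ratio from 0.16 to −0.12, and 322 to 437 with 1 library left out. Against cluster 9 the higher genes, 127, ranged from 158 to 211 and the lower ones, 128, from 176 to 208.

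Detection of *Irf1* moved from 97.4% to 80% after thinning and to 100% in cells with at least 3900 UMIs, and that of *Serpina3g* from 73.7% to 58.6% after thinning. The mean mitochondrial shares of cluster 10 were 2.14%, 1.86% and 2.59%, where the medians were 1.82%, 1.49% and 2.09%; the cause was not tested.

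Of 56 named genes called against the other cDC1s 1 reversed, *Ccl5*, whose mean log2 ratio moved from −2.57 to 0.36 without cluster 8, the cluster that held 89.1% of the *Ccl5* UMIs of the other cDC1s. The rule was still met by 54 with TMM factors, 56 with DESeq2 size factors, 44 at a mean of at least 50 CPM, 50 with a pseudocount of 5 CPM, 45 after thinning, 46 with the other clusters weighted equally and 48 among cells with *Xist* and no Y-linked transcript, and by 55 without cluster 8, both alternatives added after the data had been seen. Why single genes lost their calls, and why thinning moved the count of lower genes, was not tested. The depth of 891318 UMIs in 76 cells limits what could be seen of genes at low levels, and 1 library per genotype leaves differences between genotypes without replicates.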
